A study of Mus musculus with 10 samples.

Results

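The epidermal growth factor receptor gene Egfr and 6 genes that encode its ligands (Epgn, Areg, Ereg, Btc, Tgfa and Hbegf) were followed in RNA from mouse back skin keratinocytes. The genes were chosen by name, and all 7 were listed in each of 10 libraries, among 17983 genes listed in any library and 15987 listed in all of them. The knockout carried the genotype Gsdma1KO/KO;Gsdma3fx/fx;K14-Cre, homozygous for a Gsdma1 knockout allele and for a floxed Gsdma3 that is cut out by Cre from the keratin 14 promoter, which is active in keratinocytes of epidermis and hair follicle. The controls were labelled wild type. The dorsal skin had been rubbed 2 times a day for 3 days with acetone and olive oil at 4:1 (AOO) or with water, and keratinocytes were taken on day 5. There were 3 knockout AOO libraries, 2 knockout water libraries, 3 control AOO libraries and 2 control water libraries. No label states that libraries came from separate animals, so the p-values reflect variation among libraries that may be technical in part.

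EGFR is a receptor tyrosine kinase of the ErbB family that sits on the surface of keratinocytes. Its ligands are made as membrane-bound precursors and released by metalloproteases, chiefly ADAM17, and the bound receptor signals through the RAS-ERK, PI3K and STAT3 arms. In skin this pathway drives keratinocyte proliferation and migration, and mice that lack the receptor or ADAM17 in keratinocytes develop abnormal hair and an inflamed, leaky epidermis.

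Library totals lay between 15914663 and 21812292 reads. Gsdma3, the floxed target, had 0, 1 and 0 reads in the knockout AOO libraries and 3 and 0 reads in the knockout water libraries. It had 69, 66 and 161 reads in the control AOO libraries and 65 and 302 reads in the control water libraries, so the labels and this gene went together. Gsdma, the gene the labels call Gsdma1, still had between 140 and 939 reads in the knockout libraries, and reads from an altered locus cannot be told apart from reads of a normal one here. All 10 basal keratinocyte markers examined, Krt5 and Krt14 among them, were present in every library. The 4 Y-linked genes examined summed to between 3583 and 4226 normalised counts in the knockout AOO libraries and between 4229 and 4967 in the control AOO libraries, and to 0 in all water libraries, so in both genotypes the treatment and this difference between libraries cannot be told apart. Control water replicate 2 had the highest median level of 12 hair shaft and inner root sheath markers, 4.64 log2 units above their usual level, followed by knockout AOO replicate 2 at 3.34.

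On the mouse build GRCm38 with GENCODE M21, Egfr lies on chromosome 11 (chr11:16752203-16918158, plus strand) and Tgfa on chromosome 6 (chr6:86195223-86275719, plus strand). Of the ligand genes, 4 are neighbours on chromosome 5. Epgn (chr5:91027464-91035215, plus strand) is followed by Ereg (chr5:91074622-91093646, plus strand) after 39.4 kb, by Areg (chr5:91139599-91148432, plus strand) after a further 46.0 kb and by Btc (chr5:91357261-91402994, minus strand) after 209 kb. The 4 genes together span 376 kb with no other protein-coding gene between them. Ereg shares exon sequence with the antisense gene Gm19610, which had between 1.92 and 19.8 normalised counts in a library, and Tgfa with Gm43917, which was listed in 4 of the 10 libraries. Egfros runs antisense to Egfr with no shared exon sequence. No strand setting is given in the sources used here, so reads from these overlaps cannot be assigned to a strand.

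RefSeq promoter sequences (GRCm38.p6) were at hand for 5 of the 7 genes, each from 250 bases before to 50 bases after the annotated start. Those of Egfr and Epgn are shown because these were the 2 genes whose knockout AOO and knockout water values did not overlap, and that of Areg because it is a chromosome 5 neighbour of Epgn whose values did overlap there. Capitals mark the GC box GGGCGG, the TATA motif TATAAA and the CCAAT box CCAAT, on either strand.
Egfr, chr11:16751953-16752252, plus strand: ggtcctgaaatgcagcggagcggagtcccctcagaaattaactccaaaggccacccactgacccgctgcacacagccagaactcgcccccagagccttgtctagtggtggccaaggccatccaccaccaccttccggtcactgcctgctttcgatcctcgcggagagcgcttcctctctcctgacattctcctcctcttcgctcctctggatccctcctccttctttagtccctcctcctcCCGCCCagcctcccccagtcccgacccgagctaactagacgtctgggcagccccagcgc
Epgn, chr5:91027267-91027566, plus strand: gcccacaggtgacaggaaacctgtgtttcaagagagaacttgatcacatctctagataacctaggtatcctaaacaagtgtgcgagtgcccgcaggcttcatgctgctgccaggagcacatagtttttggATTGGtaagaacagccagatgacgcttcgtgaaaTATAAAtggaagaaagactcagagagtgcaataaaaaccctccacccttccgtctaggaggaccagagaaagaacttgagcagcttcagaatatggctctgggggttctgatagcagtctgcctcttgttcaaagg
Areg, chr5:91139349-91139648, plus strand: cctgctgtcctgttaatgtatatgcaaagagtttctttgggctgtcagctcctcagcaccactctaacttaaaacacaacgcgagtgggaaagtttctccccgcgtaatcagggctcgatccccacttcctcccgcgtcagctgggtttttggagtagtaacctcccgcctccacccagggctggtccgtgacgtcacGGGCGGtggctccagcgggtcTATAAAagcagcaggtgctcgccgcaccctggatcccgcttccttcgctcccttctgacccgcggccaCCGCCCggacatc
The Egfr window was 62.3% G and C and held 1 GC box, beginning at position -9 from the start. The Epgn window was 47.3% G and C and held a CCAAT box at -120 and a TATA motif at -86. The RefSeq start of Epgn lies 53 bases downstream of the GENCODE start, and counted from the GENCODE start these matches begin at -67 and -33. The Areg window was 59.3% G and C and held a TATA motif at -31 and GC boxes at -52 and 37. Over 32851 promoter windows of the same length, 13.6% held TATAAA, 35.7% held GGGCGG and 37.4% held CCAAT. The AP-1 motif TGANTCA, found in 7.81% of windows, had 0 matches in the 5 windows searched, which also included Tgfa (2 GC boxes) and Btc (no match to any of the 4 motifs). These matches describe letters only and are not measured binding sites.

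Epgn, which encodes the ligand epigen, was the most abundant of these transcripts once values were divided by gene length. Per kilobase of annotated exon, its median normalised count over the 10 libraries was 7107, above 99.3% of all genes. Areg, the gene for amphiregulin, had a median of 936 per kb and Egfr one of 387 per kb. Hbegf (heparin-binding EGF-like growth factor) followed at 244, Ereg (epiregulin) at 188 and Tgfa (transforming growth factor alpha) at 169 per kb. Btc (betacellulin) was lowest at 12.7 per kb, with between 35 and 164 reads in a library. Per kb, Epgn stood above Areg, Areg above Egfr, and Tgfa above Btc in 10 of 10 libraries. Egfr stood above Hbegf and Hbegf above Ereg in 8 of 10, whereas Ereg stood above Tgfa in only 4 of 10, so that pair had no fixed order. The order of Areg and Egfr depends on the annotated exon lengths, 1215 bases for Areg and 11326 for Egfr. Before division by length, Egfr had 2351 to 5631 normalised counts in a library and Areg 637 to 1612.

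The spread of the members across libraries differed widely. Epgn ranged 14.9-fold between its lowest and highest library, and its SD of 1.33 log2 units over the 10 libraries lay above that of 99.0% of the 11956 genes with a mean normalised count of at least 50. Ereg ranged 5.81-fold and Btc 4.38-fold, with SDs at the 93.5 and 87.3 percentiles. Areg, Egfr, Hbegf and Tgfa ranged between 2.27-fold and 2.53-fold. Much of the Epgn spread lay within groups: in each of the 4 groups replicate 1 had the highest Epgn value, and the same was true of Egfr.

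**Figure D1:**
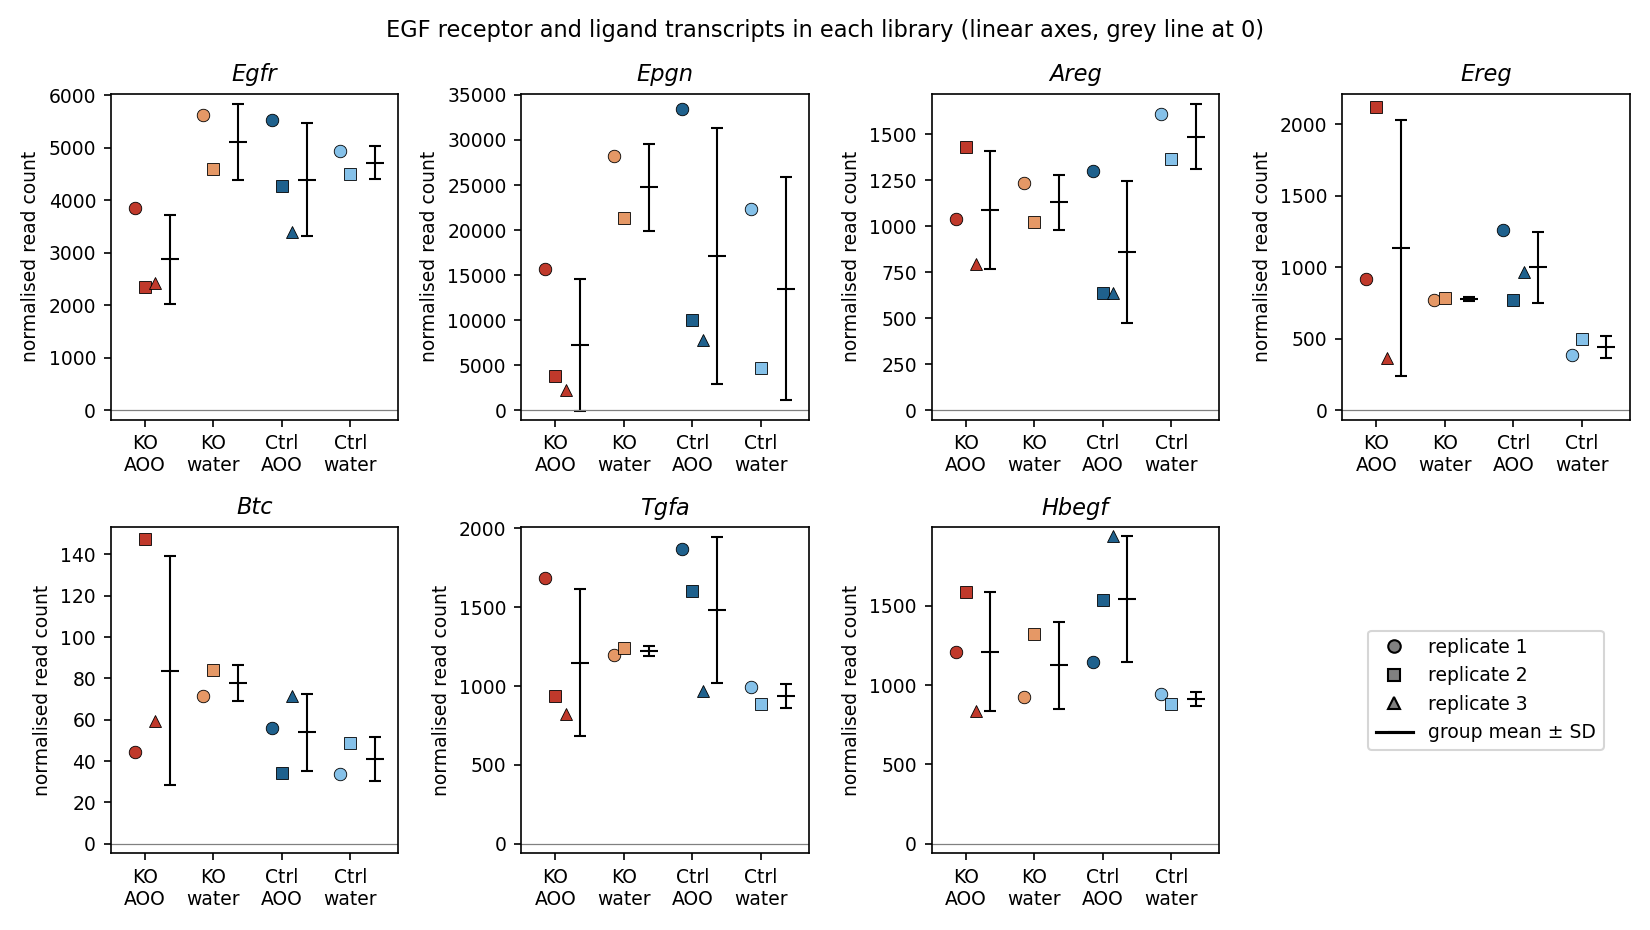
Normalised read count (y axis, linear) of Egfr and its 6 ligand genes in each library, by group (x axis: knockout AOO, knockout water, control AOO, control water). Symbols mark the replicate number and the bars give the group mean and SD (n = 3 for AOO, n = 2 for water); the 3 knockout AOO libraries lie below both knockout water libraries for Egfr and Epgn, while the other 5 genes overlap there.

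In knockout skin, Egfr was lower in AOO than in water libraries, and it was the only one of the 7 genes to pass the test. In both genotypes the AOO libraries had Y-linked transcripts and the water libraries had none. Each AOO against water difference given here therefore cannot be told apart from that one. Egfr had 3850.4, 2351 and 2426 normalised counts in the knockout AOO libraries, against 5631 and 4604 in the knockout water libraries. All 3 AOO values were below both water values. The difference was -0.86 ± 0.25 on the log2(value + 1) scale (SE), a 0.55-fold level, with an adjusted p of 0.0469 in limma's moderated test over 15958 genes. Against this 1 of 7 members called, 13.4% of all genes were called in this comparison, and 6.69% of all genes were called lower. The call was narrow: edgeR gave an adjusted p of 0.0527 (12.5% of all genes called) and DESeq2 one of 0.0215 (22.6% called). Leaving out single libraries moved the adjusted p between 0.0163 and 0.266, and the call was lost without control AOO replicate 2, knockout AOO replicate 2 or 3, or either knockout water library.

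Epgn showed the widest gap between group means in the same comparison and did not pass the test. It had 15624, 3789 and 2253 normalised counts in the knockout AOO libraries, against 28183 and 21353 in the knockout water libraries. The groups did not overlap, but replicate 1 of the AOO group stood far above the other 2 AOO libraries. The log2 difference was -2.26 ± 0.87 (SE; 95% interval -4.18 to -0.35), with an adjusted p of 0.0958 in limma. Without knockout AOO replicate 1 the difference was -3.07 and passed at an adjusted p of 0.0284; over 19 alternatives the adjusted p lay between 0.0136 and 0.336 and passed in 4. In all, 2 of 7 members were lower with no overlap between groups, beside 29.2% of all genes, and 2 of 7 had an unadjusted p under 0.05, beside 35.0% of all genes.

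The other 5 ligands overlapped between knockout AOO and knockout water libraries. Areg, released by ADAM17 and a mitogen for keratinocytes, had 1039, 1434 and 796 normalised counts under AOO, against 1237 and 1026 under water. Its log2 difference was -0.09 with a 95% interval of -0.81 to 0.63. Ereg, which binds both EGFR and ErbB4, had 919, 2119.7 and 365 under AOO, against 768 and 785 under water. The highest and the lowest Ereg values of all 10 libraries were thus both in this AOO group, and the log2 difference was 0.20 ± 0.54 (SE). Btc, another ligand of EGFR and ErbB4, also peaked in knockout AOO replicate 2, with 147 normalised counts, whereas the other 2 libraries of the group had 44.5 and 59.4, against 71.4 and 83.9 under water. Tgfa, whose loss gives mice wavy hair, differed by -0.16 (interval -0.87 to 0.55). Hbegf, a ligand made during wound closure, differed by 0.08 (interval -0.55 to 0.72).

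Most basal keratinocyte markers moved with Egfr. Of the 10 basal markers, 3 (Krt15, Trp63 and Dst) were called lower in knockout AOO libraries and 0 higher. Of all genes, 6.69% were called lower. All 10 basal markers together had 8 negative and 2 positive log2 differences, with a median of -0.83. Their median level relative to each gene's median over all libraries was -0.08, -1.12 and -0.77 in the knockout AOO libraries, against 0.04 and 0.07 in the knockout water libraries. The 2 AOO libraries lowest in these markers were also the 2 lowest of all 10 in Egfr and in Epgn. The summed basal marker level, carried mostly by Krt5 and Krt14, overlapped between the groups, at 530179 to 892719 normalised counts in knockout AOO libraries and 650073 to 671292 in knockout water libraries. Set against the mean log2 level of the 10 basal markers, Egfr was at -2.63 ± 0.16 in knockout AOO libraries and -2.40 ± 0.23 in knockout water libraries (SD, n = 3 and 2), with overlapping ranges. Epgn set against the same markers was at -1.76 ± 1.06 in knockout AOO libraries and -0.13 ± 0.31 in knockout water libraries, with no overlap. In RNA from a mixed cell suspension, fewer cells of a type and less RNA per cell cannot be told apart.

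Other cell markers also differed in the same comparison. All 5 red blood cell genes were called higher, with sums of 14407 to 27549 normalised counts in knockout AOO libraries and 1176 to 2544 in knockout water libraries. Of 8 endothelial markers, 3 were called higher, with sums of 408 to 606 in knockout AOO libraries and 124 to 281 in knockout water libraries, where replicate 1 had Cdh5 and Emcn at 0. Of 9 suprabasal keratinocyte markers, 3 (Flg, Krt1 and Dsc1) were called higher and 0 lower. Of the 9, 6 had positive and 3 negative log2 differences, with a median of 0.37. Of all genes, 13.4% were called in this comparison. Positive log2 differences were seen in 7 of 10 outer root sheath and bulge markers (median 0.18, 2 called higher). They were seen in 8 of 10 sebocyte markers (0.75, 1 called higher). The same held for hair shaft and inner root sheath (10 of 12, 1.70) and melanocyte markers (6 of 7, 0.75), with 0 called. T cell markers had 7 of 10 (0.11) and Langerhans and dendritic cell markers 6 of 10 (0.14), with 0 called. Fibroblast markers had 2 of 8 (-0.55), with 1 called higher and 1 lower. What part these cell markers have in the Egfr and Epgn values was not tested.

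In control skin, 0 of 7 members passed the test for AOO against water, where 0.0627% of all genes (10 genes) did. Of these 10 genes, 4 were the Y-linked genes, which were at 0 in all water libraries. edgeR and DESeq2 also called 0 of 7, beside 0.0438% and 2.23% of all genes, and 2 of 7 had an unadjusted p under 0.05 in limma, beside 12.9% of all genes. Areg had 1304, 638 and 637 normalised counts in the control AOO libraries, against 1612 and 1364 in the control water libraries. Every AOO value was below every water value, although replicate 1 came close. The log2 difference was -0.87 ± 0.32 (SE), with an unadjusted p of 0.0216 and an adjusted p of 0.306 in limma; without control AOO replicate 1 it was -1.22 and passed at an adjusted p of 0.0390, the lowest over the 19 alternatives (highest 0.759).

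Hbegf and Ereg stood higher in control AOO than in control water libraries without passing. Hbegf, which lies on chromosome 18 (chr18:36504927-36515805, minus strand), had 1146, 1537 and 1942 normalised counts under AOO, against 942 and 882 under water. The groups did not overlap, and the log2 difference was 0.73 ± 0.29 (SE; adjusted p 0.328 in limma). Ereg had 1261, 770.4 and 964 under AOO, against 386 and 495 under water, again with no overlap. Its log2 difference was 1.16 ± 0.54 (SE; adjusted p 0.403 in limma). Counting Areg, 3 of 7 members did not overlap between these groups (2 higher and 1 lower), beside 24.2% of all genes. Epgn (0.43), Tgfa (0.61), Btc (0.34) and Egfr (-0.13) overlapped, and Egfr had 5529, 4264 and 3387 under AOO, against 4939 and 4497 under water. The 10 epidermal T cell markers moved with Areg here: all 10 had negative log2 differences with a median of -1.17, 0 were called, and their sums were 5856 to 18884 normalised counts in control AOO libraries and 16948 to 32425 in control water libraries. The 10 Langerhans and dendritic cell markers also all had negative log2 differences, with a median of -0.96, 0 called, and sums of 13537 to 19071 in control AOO libraries and 19699 to 50004 in control water libraries. The 9 suprabasal keratinocyte markers all had positive ones, as Hbegf and Ereg did, with a median of 0.54, 0 called, and sums of 278557 to 430509.8 in control AOO libraries and 169997 to 221485 in control water libraries. Negative differences were also seen in 11 of 12 hair shaft and inner root sheath markers (median -2.42) and 9 of 10 sebocyte markers (-0.63). They were seen in 7 of 7 melanocyte (-0.53), 6 of 8 endothelial (-0.57), 6 of 10 outer root sheath and bulge (-0.15) and 4 of 8 fibroblast markers (-0.18). Red blood cell genes had 5 of 5 positive differences (1.00) and basal markers 7 of 10 (0.18). None of these was called. The part of these markers in the member values was not tested.

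**Figure D2:**
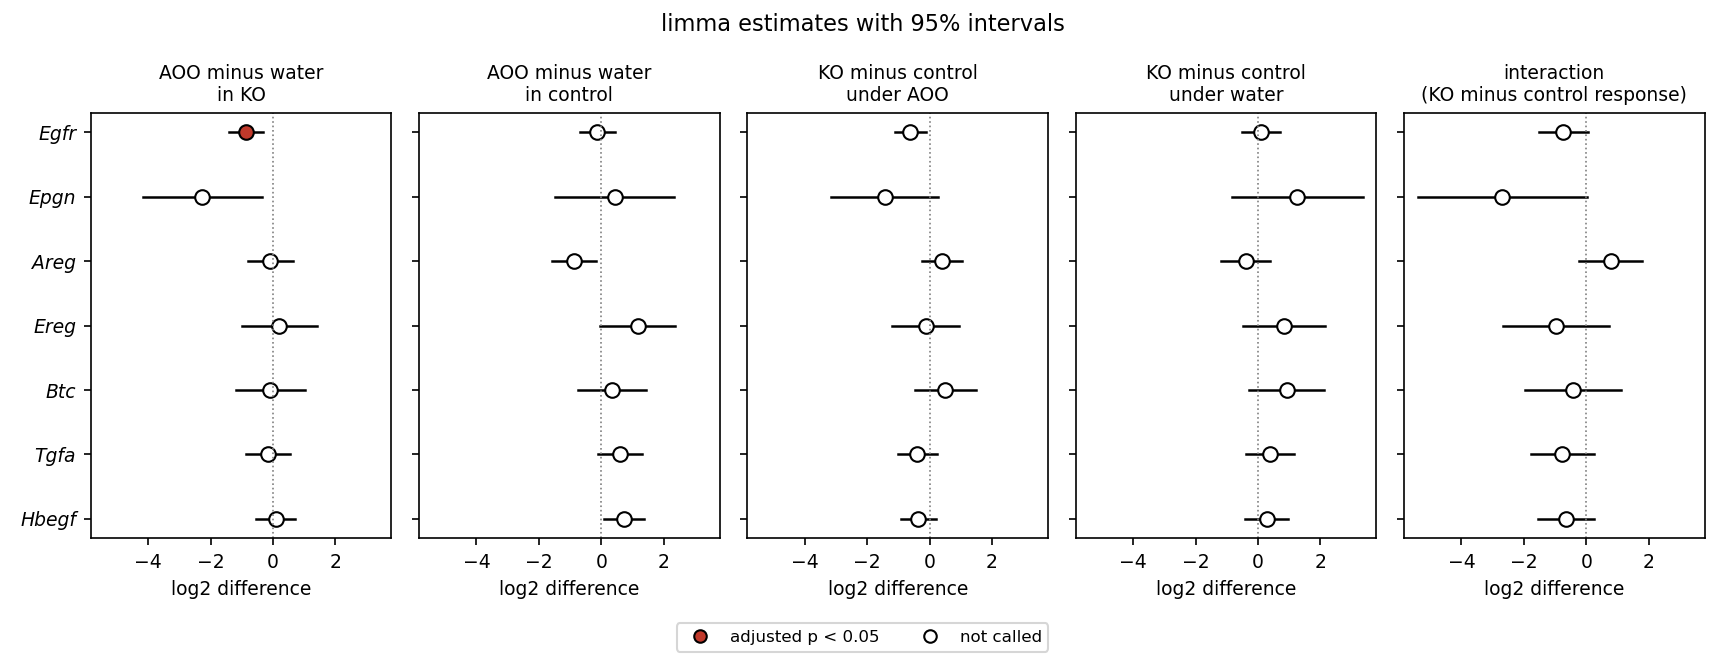
Log2 difference (x axis) of each gene in the 5 comparisons, with 95% intervals from limma; a filled red point marks an adjusted p under 0.05. Egfr in knockout AOO against knockout water libraries (-0.86) is the only filled point, and the Epgn intervals are the widest in each panel.

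The knockout and control libraries were then compared within each treatment. Under AOO, 0 of 7 members were called in limma, edgeR or DESeq2, beside 0.0%, 0.0% and 1.08% of all genes. Egfr alone had an unadjusted p under 0.05, beside 12.0% of all genes. It averaged 2876 ± 845 normalised counts in knockout AOO libraries and 4393 ± 1077 in control AOO libraries (SD, n = 3 each), a log2 difference of -0.62 ± 0.22 (SE; adjusted p 0.360 in limma). The highest knockout library, at 3850.4, exceeded the lowest control library, at 3387, so the groups overlapped. The basal keratinocyte markers moved the same way, with 10 of 10 log2 differences negative, a median of -0.72 and 0 called. Set against the mean log2 level of these markers, Egfr was at -2.63 ± 0.16 in knockout AOO libraries and -2.68 ± 0.32 in control AOO libraries (SD, n = 3 each), with overlapping ranges. Langerhans and dendritic cell markers had 10 of 10 positive log2 differences (median 1.11, 0 called), with sums of 25499 to 42228 normalised counts in knockout AOO libraries and 13537 to 19071 in control AOO libraries. Positive differences were also seen in sebocyte (10 of 10, median 0.90), outer root sheath and bulge (10 of 10, 0.52) and endothelial markers (8 of 8, 1.62). The same held for melanocyte (7 of 7, 0.92), red blood cell (5 of 5, 0.99) and hair shaft and inner root sheath markers (10 of 12, 2.46). T cell markers had 9 of 10 (0.37) and suprabasal markers 8 of 9 (0.18), whereas fibroblast markers had 2 of 8 (-0.40). None of these was called, and their part was not tested. Epgn averaged 7222 ± 7317 in knockout AOO libraries and 17111 ± 14225 in control AOO libraries, a log2 difference of -1.43 ± 0.78 (SE; adjusted p 0.479 in limma). It was -2.24 without knockout AOO replicate 1, -0.84 without knockout AOO replicate 3 and -0.79 without control AOO replicate 1. The groups overlapped for 7 of 7 members, while 16.8% of all genes did not overlap.

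Under water, 0 of 7 members were called by any of the 3 tools, 0 had an unadjusted p under 0.05 in limma (4.98% of all genes did), and 0.0% of all genes were called in limma or edgeR and 0.0375% in DESeq2. Ereg averaged 776 ± 11.6 normalised counts in knockout water libraries and 441 ± 76.6 in control water libraries (SD, n = 2 each), with no overlap and a log2 difference of 0.83 ± 0.60 (SE; adjusted p 0.963 in limma). Btc averaged 77.7 ± 8.84 in knockout water libraries and 41.2 ± 10.7 in control water libraries, and Tgfa 1221 ± 31.6 against 939 ± 76.6, both also without overlap. Areg averaged 1131 ± 149 in knockout water libraries and 1488 ± 175 in control water libraries and was the one member with a negative difference (-0.40). The 10 epidermal T cell markers also all had negative log2 differences (median -0.75, 0 called), as did the 5 red blood cell genes (-1.42, 0 called). In all, 4 of 7 members did not overlap between these 2 pairs of libraries, beside 34.7% of all genes. Most hair shaft and inner root sheath (11 of 12, -1.92), sebocyte (9 of 10, -0.43) and endothelial markers (7 of 8, -0.49) were negative. So were most Langerhans and dendritic cell (9 of 10, -0.27), melanocyte (6 of 7, -0.47) and fibroblast markers (5 of 8, -0.33). Suprabasal (8 of 9, 0.42), outer root sheath and bulge (9 of 10, 0.29) and basal markers (6 of 10, 0.10) were mostly positive. None of these was called, and their part was not tested.

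The difference between the knockout and control responses to AOO was tested as an interaction. It called 0 of 7 members and 0.0% of all genes in limma, with 0 members at an unadjusted p under 0.05, beside 11.9% of all genes. edgeR (0.0% of all genes) and DESeq2 (1.23%) also called 0 members. The estimate was -2.69 ± 1.23 for Epgn (SE; unadjusted p 0.0515, adjusted p 0.422), with a 95% interval of -5.40 to 0.02. Leaving out 1 library moved the Epgn estimate between -3.81, without control water replicate 1, and -1.57, without control water replicate 2. It was -0.73 ± 0.35 for Egfr (adjusted p 0.433) and 0.78 ± 0.46 for Areg (adjusted p 0.482), the one member of 7 with a positive value. The median over the 7 members was -0.73 and that over all genes 0.03. The basal keratinocyte markers had 10 of 10 negative interaction estimates (median -0.85) and the Langerhans and dendritic cell markers 10 of 10 positive ones (median 1.41), with 0 called in either list. Positive estimates were also seen in T cell (10 of 10, 1.15), endothelial (8 of 8, 2.21) and red blood cell markers (5 of 5, 2.46). The same held for hair shaft and inner root sheath (10 of 12, 4.27), sebocyte (9 of 10, 1.64), outer root sheath and bulge (9 of 10, 0.20) and melanocyte markers (6 of 7, 1.55). Suprabasal markers had 5 of 9 (0.003) and fibroblast markers 4 of 8 (-0.30). None of these was called. The part of these markers in the member values was not tested. The Egfr call in knockout skin is therefore not shown to differ from control skin.

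Epgn was the largest part of the summed ligand transcripts in 10 of 10 libraries. Per kb of exon, the 6 ligands summed to 5614 ± 4131 in knockout AOO libraries, 15264 ± 2729 in knockout water libraries, 10978 ± 8222 in control AOO libraries and 9147 ± 7020.4 in control water libraries (SD). Epgn made up 84.4%, 48.8% and 54.1% of that sum in the knockout AOO libraries, against 90.7% and 88.6% in the knockout water libraries. It made up 90.6%, 81.2% and 76.5% in the control AOO libraries, against 87.4% and 62.4% in the control water libraries. The knockout AOO shares were all below the knockout water shares, whereas the control groups overlapped. Without Epgn, the other 5 ligands summed per kb to 1617 ± 571 in knockout AOO, 1557 ± 55.9 in knockout water, 1509 ± 353 in control AOO and 1674 ± 144 in control water libraries. Those sums overlapped between knockout AOO and knockout water libraries.

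**Figure D3:**
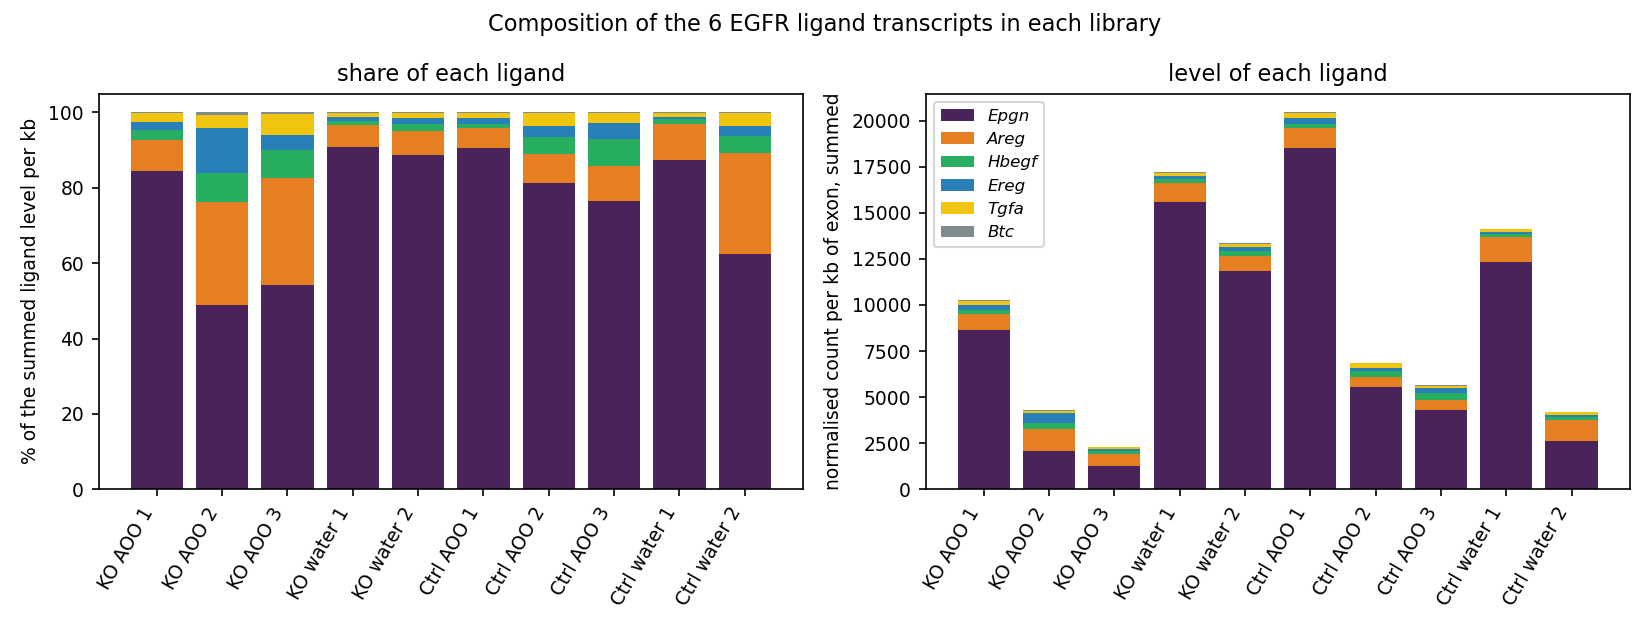
Left, share of each ligand in the summed normalised count per kb of exon (y axis, %) in each library (x axis); right, the same sum as a level (y axis, normalised count per kb). The Epgn part (darkest) is 48.8% and 54.1% in knockout AOO replicates 2 and 3 and between 62.4% and 90.7% in the other 8 libraries.

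The chromosome 5 neighbours did not share 1 order of libraries. Epgn was highest in control AOO replicate 1, Areg in control water replicate 1, and Ereg and Btc in knockout AOO replicate 2. Control water replicate 1, highest of 10 for Areg, was the lowest for Btc. Knockout AOO replicate 3 was the lowest library for 4 of the 7 genes (Epgn, Ereg, Hbegf and Tgfa).

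The genes whose log2 levels followed each member most closely over the 10 libraries were sought among 11457 genes with a mean normalised count of at least 50, leaving out the other members and predicted genes (names of Gm and digits, or ending in Rik). For Egfr these were Arhgef5 (Pearson r 0.99), Arfgap3 (0.99) and Plekhb2 (0.99), and 5.56% of the genes compared had an r above 0.9. For Epgn they were Zfp597 (0.99), Metap1 (0.98) and Ube2d3 (0.98), with 2.57% above 0.9. Areg was followed by Csnk1e (0.93), Gch1 and Pld3, and Ereg by Tmprss11f (0.96), Lipn and Usp4. Tgfa was followed by Irak3 (0.97) and Chic2, Btc by Golt1b (0.96), Myo18a and Elovl4, and Hbegf by Mst1 (0.91), Cops5 and Ecpas. For these 5 genes at most 0.201% of genes had an r above 0.9. All genes share the libraries, their scaling and their cell makeup, so these coefficients only describe likeness.

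Of 81 other pathway genes listed for comparison, 78 were tested, and 12 were called in knockout AOO against knockout water libraries, 2 higher and 10 lower. That was 15.4% of the tested pathway genes beside 13.4% of all genes, and 58 of the 78 had negative differences. In the other 4 comparisons 0 of 78 were called in limma. The other ErbB receptors Erbb2 and Erbb3, which pair with EGFR, were not called, with log2 differences of -0.30 and -0.31 in knockout AOO against knockout water libraries.

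Among 10 genes of ligand shedding, 3 were called lower in knockout AOO libraries and 0 higher, beside 6.69% of all genes called lower. Of the 10, 8 had negative and 2 positive differences, with a list median of -0.64 on the log2 scale beside 0.01 over all genes. Rhbdf2, the gene for iRhom2, which carries ADAM17 to the cell surface, had 3664, 3655 and 3148 normalised counts in knockout AOO libraries, against 5822 and 6064 in knockout water libraries. The groups did not overlap, and the log2 difference was -0.77 ± 0.18 (SE; adjusted p 0.0266 in limma). Its relative Rhbdf1, the gene for iRhom1, fell by 0.76 on the log2 scale (adjusted p 0.0465 in limma). Timp3, an inhibitor of ADAM17, had 1856, 856 and 662 in knockout AOO libraries, against 3130.2 and 3154 in knockout water libraries, and fell by 1.63 (adjusted p 0.0465 in limma). Thus ADAM17 partners and an ADAM17 inhibitor were lower together. Adam17 itself had a log2 difference of -0.11 (adjusted p 0.609) and Adam10 one of 0.25 (adjusted p 0.322), neither called.

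Downstream genes gave a mixed picture in the same comparison. Spry1, a feedback inhibitor of receptor tyrosine kinase signalling, had 769, 737 and 444 normalised counts in knockout AOO libraries, against 1522 and 1549.8 in knockout water libraries, and fell by 1.28 (adjusted p 0.0151 in limma). It was the 1 gene called among 21 feedback and turnover genes, whose median was -0.45. Among 28 adaptor and signalling arm genes, 4 were called lower and 1 higher, beside 13.4% of all genes called. Of the 28, 19 had negative and 9 positive differences. Those called lower were Pik3cb (-1.22) and Pik3r1 (-1.10), which encode subunits of PI3K, Stat3 (-0.72) and the RAS exchange factor gene Sos2 (-0.78). The 1 called higher was the MEK2 gene Map2k2 (0.50), which is named here after its value was seen. These values are log2 differences. The list median was -0.23.

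Of 13 ERK-responsive transcripts tested, 1 was called higher and 2 were called lower, beside 13.4% of all genes called. Of the 13, 3 had positive and 10 negative log2 differences. Etv4, an ETS transcription factor gene, had 1113, 781 and 872 normalised counts in knockout AOO libraries, against 251 and 255 in knockout water libraries. It rose by 1.84 ± 0.26 on the log2 scale (SE; adjusted p 0.00796 in limma). Fosl1, which encodes the AP-1 subunit Fra-1, had 903, 419 and 426 in knockout AOO libraries, against 2233 and 2167 in knockout water libraries. It fell by 2.01 (adjusted p 0.0219 in limma), and Myc by 0.56 (adjusted p 0.0484 in limma). Both genes called lower and the 1 called higher had groups without overlap, but they were picked by the test on these same values. Of all genes, 29.2% were lower with no overlap in this comparison. The list median was -0.34. All 12 called genes lost the call when either knockout water library was left out. Fosl1 also lost it without knockout AOO replicate 2 or 3, and Rhbdf2, Timp3, Rhbdf1, Pik3cb, Stat3, Sos2, Pik3r1 and Map2k2 without either of these or control AOO replicate 2. Myc kept its call in 3 of 10 fits that left out 1 library, those without control AOO replicate 1 or either control water library. In edgeR, Timp3 (adjusted p 0.0600), Rhbdf1 (0.0520) and Myc (0.0569) were not called, and DESeq2 called all 12.

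**Figure D4:**
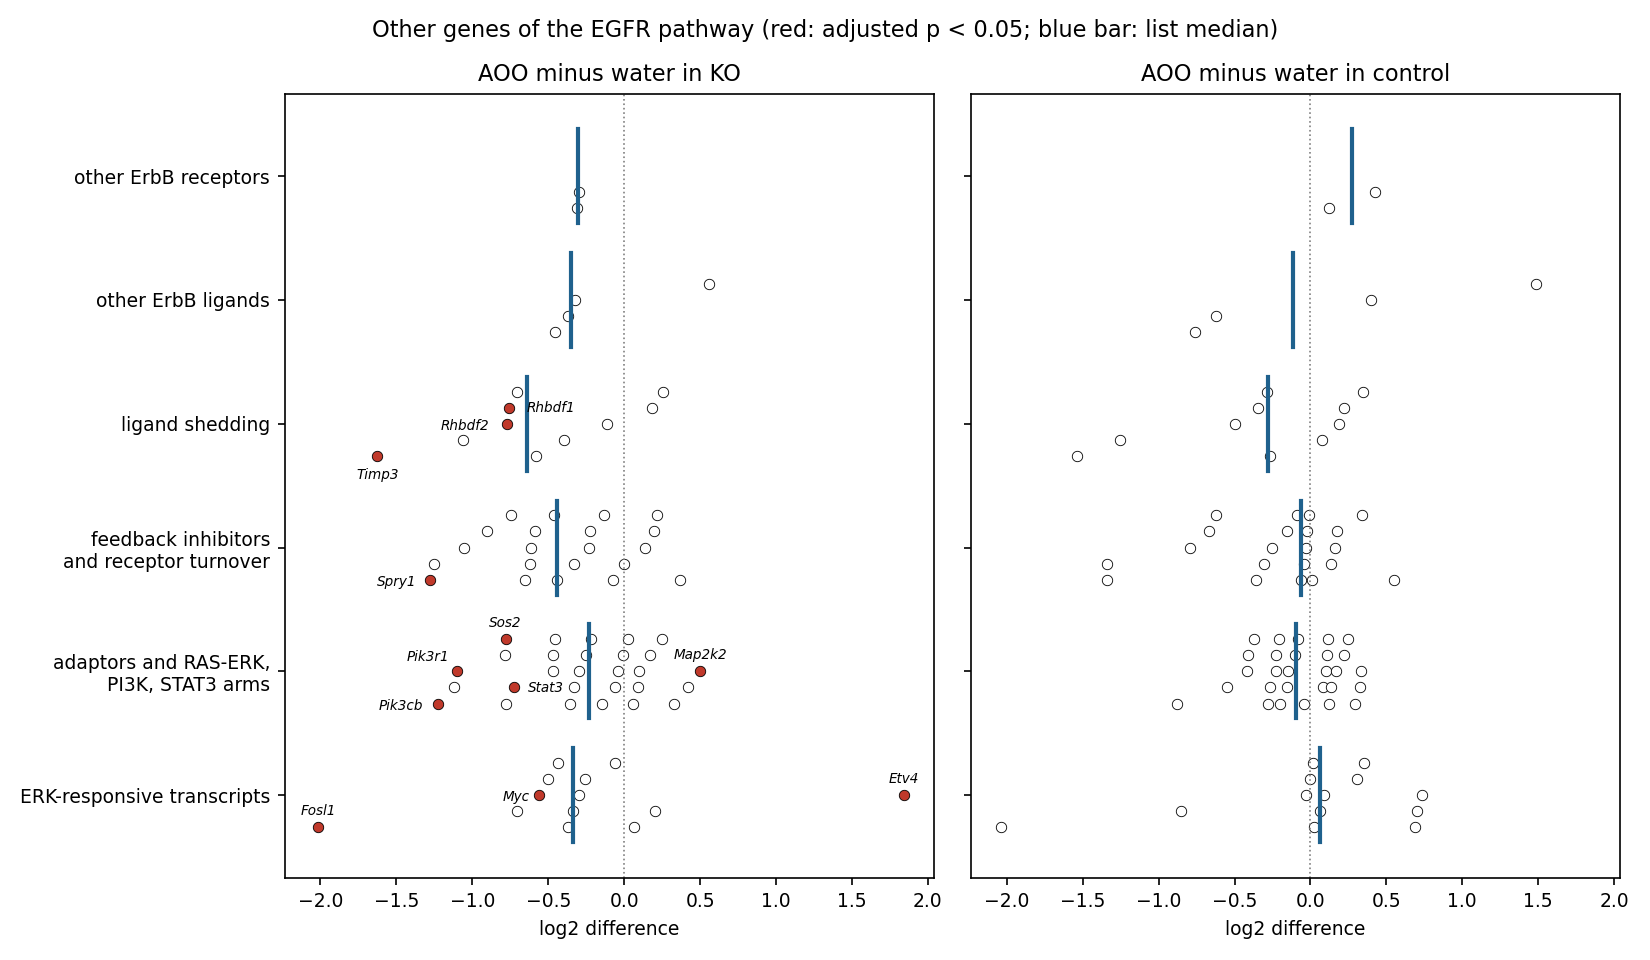
Log2 difference between AOO and water libraries (x axis) of the 78 other pathway genes, by list (rows), in knockout (left) and control (right) skin. Red points passed an adjusted p of 0.05 in limma and blue bars are list medians; 12 points are red in knockout skin and 0 in control skin.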

How the data were processed

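RNA from keratinocytes of mouse back skin epidermis was sequenced in 10 libraries. The authors deposited 1 file per library with a normalised signal per gene, that is, read counts divided by a size factor. Trimmomatic 0.38, featureCounts 2.0.0 and DESeq2 1.26.0 with GRCm38 (mm10) were named, per the submitters' processing notes; no aligner, annotation release or strand setting is given in the sources used here. The kit, NEBNext Ultra per the labels' protocols, does not mark strand. In each library 100% of values were whole multiples of 1 step (tolerance 0.1 read), which gave back whole reads.

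Median-of-ratios factors over the 15987 genes listed in all files (0.995 to 1.00) put the deposited values on 1 scale, called normalised counts here. Of 17983 gene IDs, 17974 matched GENCODE M21. Genes with a value of at least 10 in at least 2 libraries were tested with limma 3.58.1 (R 4.3.3) on log2(value + 1), in 1 model of 4 group means over all 10 libraries, two-sided, with Benjamini-Hochberg adjustment over 15958 genes. A gene was called at an adjusted p under 0.05. Fold changes on that scale are too small for genes with low values. edgeR 4.0.16 and DESeq2 1.42.0 were run on the recovered reads. The alternatives tried were other scaling, pseudocount and filter settings, fits of the 2 groups alone, a replicate block and leaving out libraries. The members and lists were chosen with earlier results of these data known. Outside the 7 members, the genes named were the called genes of each pathway list (up to 4 per list and comparison, lowest adjusted p first), the 3 genes with the highest correlation to each member, and the knockout targets. Erbb2, Erbb3, Adam17, Adam10, Map2k2 and the cell marker genes lie outside this rule and were named after their values were seen. One gene that the correlation rule picks is not reported here.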

Additional observations from a re-analysis of the deposited data

How the results depend on the processing

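In knockout AOO against knockout water libraries, 1 of 7 members was called. The count was 0 with edgeR and 0 with both the libraries highest in hair shaft markers left out (control water replicate 2 and knockout AOO replicate 2). It was 2 (Egfr and Epgn) with only the 2 groups compared, 2 with the genes listed in both groups and only those groups, and 2 under the replicate block. Leaving out 1 library gave 0 to 2 there and 0 to 1 in control AOO against control water libraries; the other 3 comparisons stayed at 0 under every alternative run. The alternative with both libraries left out and the one with genes listed in both groups were chosen after seeing the data.

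Whether the replicate numbers pair the libraries was not settled. Same-numbered libraries of the 2 AOO groups had deviation correlations of 0.31, -0.10 and 0.13, and those of all same-numbered pairs of libraries ran from -0.10 to 0.45. Those of differently numbered pairs ran from -0.45 to 0.35. In a group of 2 libraries the deviations are equal and opposite, so these correlations cannot decide the question. Under the replicate block, Egfr had an adjusted p of 0.0175 and Epgn 0.0136 in limma, and no member was called elsewhere. With the block, 3 members (Egfr, Epgn and Tgfa) had an unadjusted p under 0.05 in knockout against control under AOO and 3, again these, for the interaction, where without the block 1 and 0 did.

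Over all genes, 2143 were called in the knockout comparison; this was 3621 with DESeq2, 3865 with only the 2 groups, 3884 with the genes listed in both, 1039 with both libraries left out, and 9 to 3132 when 1 library was left out. In control AOO against control water libraries 10 became 356 with DESeq2, 58 under the block and 33 with both libraries left out, and 6 to 470 when 1 library was left out. DESeq2 called 173 genes in knockout against control under AOO, 6 under water and 197 for the interaction, where limma called 0; in limma, leaving out 1 library gave 0 to 50, 0 to 1 and 0 to 74, only the 2 groups gave 3 under AOO, and both libraries left out gave 1 under water. Scaling to equal totals moved the median of all genes in the knockout comparison to 0.13 log2 units and its split to 1346 higher and 845 lower, against 1076 and 1067.

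Differences near 0 changed sign. In the knockout comparison Areg was 0.034 with equal totals and 0.10 under the block, Btc 0.041 with equal totals, 0.17 in edgeR and 0.11 in DESeq2, Tgfa 0.078 under the block, and Hbegf -0.14 and Ereg -0.42 with both libraries left out. In the control comparison Egfr was 0.0082 under the block and Epgn -0.69 with both libraries left out. In knockout against control under AOO, Ereg was 0.20 in edgeR and 0.18 in DESeq2, and Btc -0.0044 with both libraries left out. Leaving out 1 library gave ranges across 0 in the knockout comparison for Areg (-0.31 to 0.12), Hbegf (-0.17 to 0.34), Ereg (-0.42 to 0.85), Tgfa (-0.48 to 0.039) and Btc (-0.58 to 0.27), and in the control comparison for Egfr (-0.31 to 0.043) and Epgn (-0.69 to 1.55). It did so in knockout against control libraries for Ereg (-0.76 to 0.51) and Btc (-0.0044 to 0.85) under AOO and for Egfr (-0.034 to 0.26) under water. None of these passed the test, and the cause was not tested. With 2 or 3 libraries a group, the narrowest interval among the members not called in the knockout comparison, that of Hbegf, ran from -0.55 to 0.72, and smaller changes were not detectable.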
